A study of Mus musculus with 12 samples.

Results

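The promoters of 4 genes of the piRNA pathway, Asz1, Mael, Tdrd1 and Fkbp6, were followed through 12 mouse methylation libraries. Each promoter is a window of mouse build mm9 from 1000 bp before to 500 bp after an annotated transcription start. Within a window, the cytosines that reached 20% methylation in at least 1 of the 12 libraries were kept. The level of a promoter in a library is the mean over the kept cytosines that have a value there. The 4 genes stand among 7173 gene promoters with at least 6 such cytosines in a library.

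piRNAs are small RNAs of the germ line that guide PIWI proteins to transposon transcripts, which are cut or silenced, and in fetal male germ cells they also direct DNA methylation onto transposons. The proteins that make and load piRNAs gather in cytoplasmic granules called nuage, many of them next to mitochondria. Genes of the pathway are mostly silent in somatic cells, where the CpG-rich promoters of several of them carry DNA methylation that is laid down around implantation. Asz1 encodes a scaffold protein with ankyrin repeats on the mitochondrial surface of germ cells. Mael encodes a nuage protein with an HMG box that is needed for transposon silencing. Tdrd1 encodes a Tudor-domain protein that binds methylated arginines of PIWI proteins. Fkbp6 encodes a member of the FK506-binding protein family that takes part in piRNA production together with heat shock protein chaperones.

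Methylation was read by reduced representation bisulfite sequencing (RRBS), in which the enzyme MspI cuts genomic DNA at CCGG and the CpG-rich fragments are bisulfite-treated and sequenced. The tissue libraries were whole bimaternal (BM), bipaternal (BP) and wild-type (WT) embryos at E15.5, BM brain at E19.5, and adult BM and adult WT brain. BM animals come from a parthenogenetic haploid embryonic stem cell (phESC) put into an MII oocyte. BP embryos come from an androgenetic haploid embryonic stem cell (ahESC) and a sperm put into an enucleated oocyte. All BM and BP samples are labelled DMR-KO, so differentially methylated regions were deleted in them, and the labels do not say which. The cell libraries were phESC, ahESC and diploid embryonic stem cells, each at late and at early passage and each labelled WT. A BM or BP embryo and the stem cells set beside it below therefore differ in the deletions as well as in tissue. The labels used here give no strain, passage number, culture medium or number of animals per library. There is 1 library per group, so no level has a replicate error, and a difference between 2 libraries is given without a test. Expression was not measured. A mean level of a bulk library cannot tell fewer methylated cells from less methylation per cell.

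Between 3773871 and 5903648 cytosines had a value in a library. The deposited percentages come without read counts, so the depth is unknown. Late phESC, late ahESC, adult BM brain and adult WT brain form a second set of 4 libraries, in which unplaced chromosome Y sequence has values, while it has none in the other 8 libraries, the first set. Late phESC and adult BM brain, whose nuclear genomes are of maternal origin by their labels, also list 654 and 890 positions on chromosome Y itself, against 97 in early phESC and 106 in E19.5 BM brain. Late ahESC list 1161 such positions, against 22 in early ahESC. Late phESC had 1702 promoters with at least 6 cytosines, against 3669 to 6637 in the other libraries. Late ahESC had a median level of 22.5% over all measured promoters, against 6.49% in late diploid cells.

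Most kept cytosines lie close to the start sites. The Asz1 window is chr6:18058557-18060057 on the minus strand. Of its 85 listed cytosines 34 reached 20%, and they lie from -120 to 115 bp of the start, with negative distances upstream. In the Mael window, chr1:168168375-168169875 on the minus strand, 70 of 152 did so, from -202 to 326 bp. The Tdrd1 window, chr19:56899776-56901276 on the plus strand, had 42 of 77, of which 40 lie downstream of the start. The Fkbp6 window, chr5:135825245-135826745 on the minus strand, had 35 of its 105, from -161 to 182 bp. The Fkbp6 start is not the only annotated one, and 23 of the 35 cytosines lie upstream of it. The sequence around a kept cytosine was known for all of them in Asz1 and for all but 5 in Mael, 17 in Tdrd1 and 8 in Fkbp6, and each kept cytosine of known sequence was a CpG.

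The 250 bases before the RefSeq start are shown for Asz1 and Mael because they hold the upstream CpGs that enter these 2 levels, with 21 of the 34 kept cytosines of Asz1 and 24 of the 70 of Mael lying before the start. Sequences are RefSeq promoters of build GRCm38.p6, written from 5′ to 3′ on the strand of the gene, and capitals mark CpGs with a cytosine that reached 20%. The RefSeq start of Asz1 lies 4 bases upstream of the start used for its window.
Asz1, GRCm38.p6 chr6:18109062-18109311, minus strand: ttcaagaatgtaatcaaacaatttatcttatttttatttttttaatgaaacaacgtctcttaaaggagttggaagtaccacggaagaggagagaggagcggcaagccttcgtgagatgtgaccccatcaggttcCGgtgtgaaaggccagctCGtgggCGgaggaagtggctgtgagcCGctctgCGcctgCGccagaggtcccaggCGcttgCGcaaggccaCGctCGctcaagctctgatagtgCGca
Mael, GRCm38.p6 chr1:166238745-166238994, minus strand: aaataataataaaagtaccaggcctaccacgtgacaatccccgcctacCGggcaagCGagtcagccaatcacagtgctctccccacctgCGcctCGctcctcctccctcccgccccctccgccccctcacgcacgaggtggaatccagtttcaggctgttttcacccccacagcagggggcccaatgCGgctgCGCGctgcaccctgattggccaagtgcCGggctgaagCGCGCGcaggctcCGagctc
The Asz1 stretch holds 15 CpGs, of which 11 had a cytosine that reached 20%, and the Mael stretch 18, of which 12 had one. The CpGs in capitals are those nearest the start in Asz1. In Mael they fall into an upstream and a downstream cluster with other CpGs between them.

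Promoters of germline genes that are silenced by methylation often carry the E-box CACGTG, bound by the MGA and MAX proteins, and a second motif, TCCCGC, bound by E2F6, which reads GCGGGA on the other strand. Among 32851 RefSeq promoters of 300 bases, 250 before and 50 after the start, 7.15% hold CACGTG and 19.98% hold TCCCGC or GCGGGA, searched on both strands. CACGTG was found in RefSeq promoters of Mael, Tdrd1 and Fkbp6 and not in that of Asz1, and TCCCGC or GCGGGA only in that of Mael. No match of one motif overlaps a match of the other. The matches are shown with 12 bases on each side and the motif in capitals, to place them beside the methylated stretch.
Mael, E-box, GRCm38.p6 chr1:166238950-166238979, minus strand: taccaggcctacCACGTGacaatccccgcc
Tdrd1, E-box, GRCm38.p6 chr19:56826186-56826215, plus strand: tggggctgcgcgCACGTGggagtaaactgc
Fkbp6, E-box nearer the start, GRCm38.p6 chr5:135350064-135350093, minus strand: gcgtctatcgatCACGTGccgtttctctcg
Fkbp6, E-box farther upstream, GRCm38.p6 chr5:135350128-135350157, minus strand: tgcgcctgccatCACGTGtgcagcgcgtgc
Mael, GCGGGA, GRCm38.p6 chr1:166238716-166238745, minus strand: cggttactaaggGCGGGAgcccggcaaggg
The CpGs inside the E-boxes of Mael and Fkbp6 have no value in these libraries. The Tdrd1 promoter sequence was not placed on mm9, so the position of its E-box there was not determined. Within GRCm38 that E-box ends 83 bases before the start of the transcript that gave the mm9 window, and on mm9 no cytosine is listed between -925 and 62 bp of that start. The CpG of the Mael GCGGGA match, 13 bp downstream of the mm9 start, had 91.6% to 98.6% in the 6 tissue libraries, against 5.04% to 21.7% in the 6 stem cell libraries. The TCCCGC match of Mael, upstream of the start, has no value.

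All 4 promoters were heavily methylated in the embryo and brain libraries and far less in the stem cell libraries. Asz1 had 92.9% in the BM, 93.7% in the BP and 94.1% in the WT embryo, 92.8% in E19.5 BM brain, 83.1% in adult BM brain and 85.7% in adult WT brain. Its stem cell levels were 25.2% and 35.2% in late and early phESC, 20.1% and 61.3% in late and early ahESC, and 18.3% and 61.3% in late and early diploid cells. These means rest on 26 to 29 cytosines. Asz1 was the most methylated of the 4 promoters in the 6 stem cell libraries, and its highest stem cell libraries still lay below its lowest tissue library, adult BM brain.

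Mael was the least methylated of the 4 in each of the 6 stem cell libraries, while its tissue levels were 83.1% or more. It had 85.3% in the BM, 84.8% in the BP and 83.2% in the WT embryo, 89.0% in E19.5 BM brain, 85.3% in adult BM brain and 83.1% in adult WT brain. In stem cells Mael had 7.52% and 16.6% in late and early phESC, 8.56% and 20.5% in late and early ahESC, and 7.19% and 24.6% in late and early diploid cells. Between 32 and 68 cytosines entered each mean, and the tissue and stem cell libraries did not overlap.

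Tdrd1 was the least methylated of the 4 in each of the 6 tissue libraries. Its levels were 79.6% in the BM, 76.7% in the BP and 76.5% in the WT embryo, 87.9% in E19.5 BM brain, 64.2% in adult BM brain and 65.2% in adult WT brain. The stem cell levels of Tdrd1 were 14.8% and 21.1% in late and early phESC, 13.2% and 30.1% in late and early ahESC, and 12.4% and 38.4% in late and early diploid cells. The late phESC value rests on 8 cytosines and the others on 23 to 42. Both adult brains were the low tissue libraries, and early diploid cells the high stem cell library.

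Fkbp6 was lowest in the adult brains among tissues and varied widely among stem cells. It had 88.2% in the BM, 89.1% in the BP and 86.1% in the WT embryo, 92.3% in E19.5 BM brain, 75.0% in adult BM brain and 82.2% in adult WT brain. Its stem cell levels were 19.3% and 17.8% in late and early phESC, 11.04% and 57.4% in late and early ahESC, and 11.1% and 45.1% in late and early diploid cells, over 13 to 26 cytosines in all libraries. Early ahESC and early diploid cells were high, and the 4 other stem cell libraries lay below 20%.

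**Figure D1:**
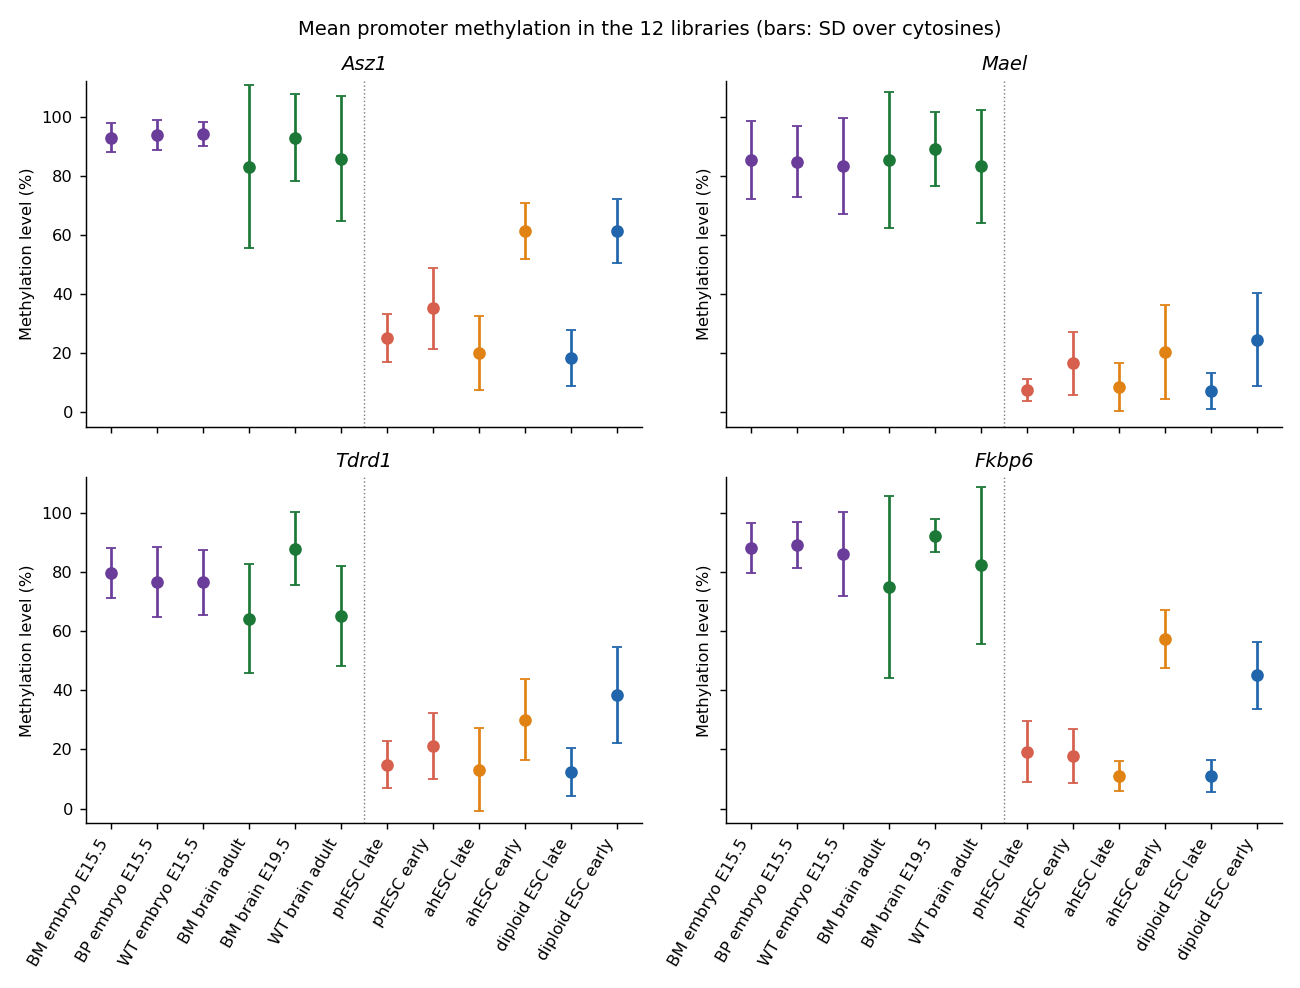
Mean methylation level (%, vertical axis) of the Asz1, Mael, Tdrd1 and Fkbp6 promoters in the 12 libraries (horizontal axis), with bars for the SD over the cytosines of a promoter, which is not a replicate error and can pass 100%. The tissue libraries, left of the dotted line, lie at 64.2% or more, and the stem cell libraries at 61.3% or less.

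Values on the 2 strands of a CpG give a measure of how exact single values are. Over CpGs outside CCGG with both strands measured, the mean absolute difference between strands ran from 2.40 to 9.65 points in Asz1, from 3.30 to 6.06 in Mael, from 2.71 to 16.4 in Tdrd1 and from 1.52 to 12.2 in Fkbp6. The widest strand differences were in late phESC for Asz1 and Fkbp6 and in early diploid cells for Tdrd1. Both Tdrd1 and Fkbp6 have fewer than 10 such CpGs, against up to 12 in Asz1 and 26 in Mael.

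Tissue and stem cells were compared over libraries, 6 against 6, with a two-sided exact permutation test run on each of the 1438 promoters with at least 6 cytosines in all 12 libraries, and Benjamini-Hochberg adjustment over all of them. The libraries of a side differ in origin, stage and passage, so they are not replicates of a condition. Mael differed most, with 85.1% ± 2.13 in tissue and 14.1% ± 7.47 in stem cells (SD, n = 6 each). Fkbp6 averaged 85.5% ± 6.15 in tissue and 26.9% ± 19.51 in stem cells, Asz1 90.4% ± 4.72 in tissue and 36.9% ± 19.8 in stem cells, and Tdrd1 75.0% ± 9.01 in tissue and 21.7% ± 10.5 in stem cells (SD, n = 6 each). The differences were 71.0 points for Mael, 58.5 for Fkbp6, 53.5 for Asz1 and 53.3 for Tdrd1, against a median of 20.6 points over all 1438 promoters.

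For each of the 4 promoters no tissue library overlapped the stem cell libraries, and the exact permutation p was 0.00216, the smallest that 6 against 6 allows, with an adjusted p of 0.00681. The 4 genes and the tests were chosen with earlier results of these data known, so these p-values are not a fresh test. The 6 stem cell libraries are also 3 cell types at late and early passage, which the test treats as separate. By the same test, 52.1% of the 1438 promoters were higher in tissue and 2.23% lower, so being called higher is common among measured promoters. A cytosine that reached 20% in tissue alone entered these means, so the filter can add to a difference. With all listed cytosines, an alternative added after seeing the data, the differences were 36.7 points for Mael, 29.8 for Tdrd1, 26.2 for Fkbp6 and 22.1 for Asz1, and again no tissue library overlapped the stem cell libraries. These means also take in positions under 20% in all 12 libraries, which need not be CpGs, so both sides fall. Asz1 then had 37.0% in tissue and 14.9% in stem cells. The smaller differences therefore do not measure what the filter adds. The exact permutation p was 0.00216 and the adjusted p 0.0417 for each of the 4, beside 5.09% of 13869 promoters higher and 0.101% lower. Within the 8 libraries of the first set, 4 against 4, the differences were 68.3 points for Mael, 56.1 for Fkbp6, 54.7 for Tdrd1 and 49.3 for Asz1. There the exact permutation p was 0.0286, again the smallest the design allows, and the adjusted p was 0.0755, so none of the 4 was called. None of the 3233 promoters of that comparison was called either, while 1167 were higher and 57 lower at an unadjusted exact permutation p under 0.05. Against the 3 early passage libraries alone the differences were 64.6 points for Mael, 45.4 for Fkbp6, 45.1 for Tdrd1 and 37.8 for Asz1, with an exact permutation p of 0.0119, the smallest possible, an adjusted p of 0.0518 and again 0 called promoters of 2918, with 874 higher and 171 lower at an unadjusted p under 0.05.

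Each kind of embryo was then set beside the early passage cells nearest to it in origin, where a difference of 25 points or more counted as higher or lower. All 4 promoters were higher in the WT embryo than in early diploid cells, by 32.8 points for Asz1, 58.6 for Mael, 38.1 for Tdrd1 and 41.0 for Fkbp6, where 8.35% of 4562 promoters were higher and 3.33% lower. The BM embryo exceeded early phESC at all 4, by 57.7 points for Asz1, 68.7 for Mael, 58.5 for Tdrd1 and 70.4 for Fkbp6, beside 30.2% of 4526 promoters higher and 0.376% lower. The BP embryo exceeded early ahESC at all 4, by 32.4 points for Asz1, 64.3 for Mael, 46.6 for Tdrd1 and 31.7 for Fkbp6, beside 11.2% of 3576 promoters higher and 2.66% lower. The medians over all promoters were 1.93, 4.71 and 0.923 points in the WT, BM and BP comparisons. Libraries of the first set alone enter these 3 comparisons.

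With all listed cytosines of the windows in place of those that reached 20%, the differences were smaller. Cytosines under 20% in all 12 libraries then enter the means. The deposited positions include GC as well as CG dinucleotides, so the cytosines added this way need not be CpGs. Mael alone was then called in the WT comparison, Mael and Tdrd1 in the BP comparison, and Mael, Tdrd1 and Fkbp6 in the BM comparison, beside 0.528% of 15142, 0.561% of 14806 and 1.50% of 15091 promoters higher in the WT, BP and BM comparisons. Asz1 was 12.8 points higher in the WT embryo, 22.8 in the BM embryo and 12.8 in the BP embryo on that basis.

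**Figure D2:**
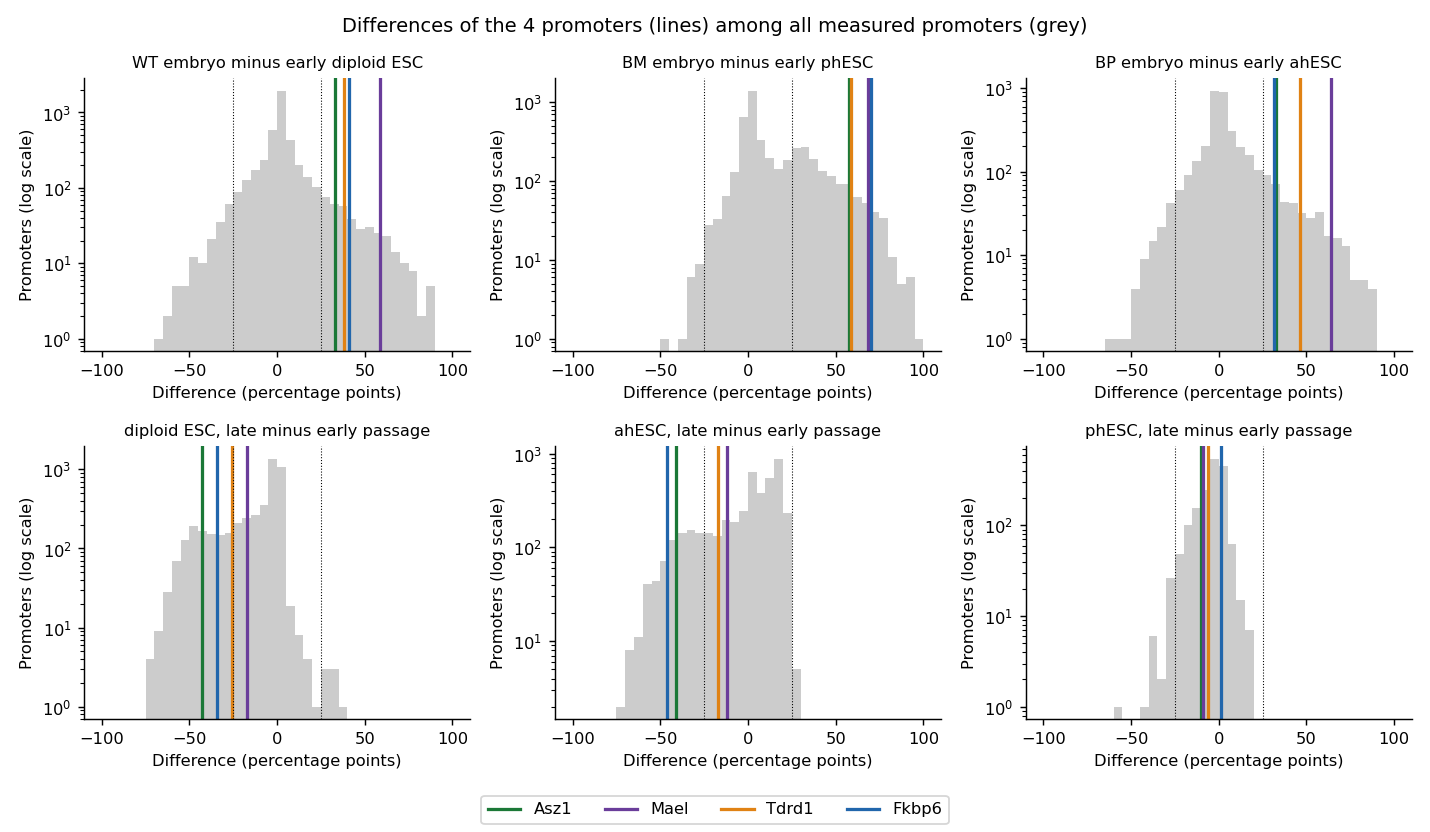
Number of promoters (vertical axis, log scale) by the difference between 2 libraries in percentage points (horizontal axis), with coloured lines for the 4 genes and dotted lines at 25 points each way. In the 3 embryo panels of the upper row the 4 lines lie right of 25 points, and in the passage panels of the lower row they lie left of 0 except for Fkbp6 in phESC.

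Levels along the promoters were compared in steps of 100 bp. In early stem cells Mael had its lowest levels beside the start. In the WT embryo the Mael means were 90.1% from -200 to -101 bp, 84.7% from -100 to -1 bp, 72.9% from 0 to 99 bp and 87.3% from 100 to 199 bp. In early diploid cells the Mael means over the same steps were 40.4%, 14.1%, 14.7% and 33.2%. The 2 steps beside the start were thus the low ones in early diploid cells, and the 6 cytosines from -200 to -101 bp the high ones. The WT embryo was above 70% at each step. Early ahESC gave 37.9%, 10.4%, 9.72% and 29.7% over these steps, and early phESC 25.9%, 14.7%, 11.04% and 18.7%.

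Asz1 differed between cell types in this respect. In the WT embryo its means were 93.2% from -200 to -101 bp, 94.7% from -100 to -1 bp, 94.2% from 0 to 99 bp and 91.99% from 100 to 199 bp. Early phESC had 40.9%, 30.4%, 36.1% and 45.8% over the same steps, so the steps beside the start were the low ones. Early ahESC had 51.5%, 62.0%, 60.9% and 68.9%, and early diploid cells 50.1%, 63.2%, 60.6% and 66.8%, with the low step farthest upstream in both. Fkbp6 in the WT embryo had 82.5% from -200 to -101 bp, 91.5% from -100 to -1 bp, 84.6% from 0 to 99 bp and 91.6% from 100 to 199 bp. Early diploid cells had 36.0%, 54.2%, 40.2% and 56.4% there. From -200 to -101 bp the WT embryo mean covers 11 Fkbp6 cytosines and the early diploid mean 7. Those without a value in early diploid cells had 30.8% to 88.7% in the WT embryo. The BM and BP embryos had 93.9% and 90.2% in this step, over 7 cytosines each. The outer steps hold 3 to 11 cytosines each, so they are less exact than the means of whole promoters.

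Tdrd1 was measured almost wholly downstream of its start. From 100 to 199 bp it had 75.5% in the WT embryo and 38.5% in early diploid cells, and in the next 100 bp 76.4% in the WT embryo and 35.2% in early diploid cells.

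**Figure D3:**
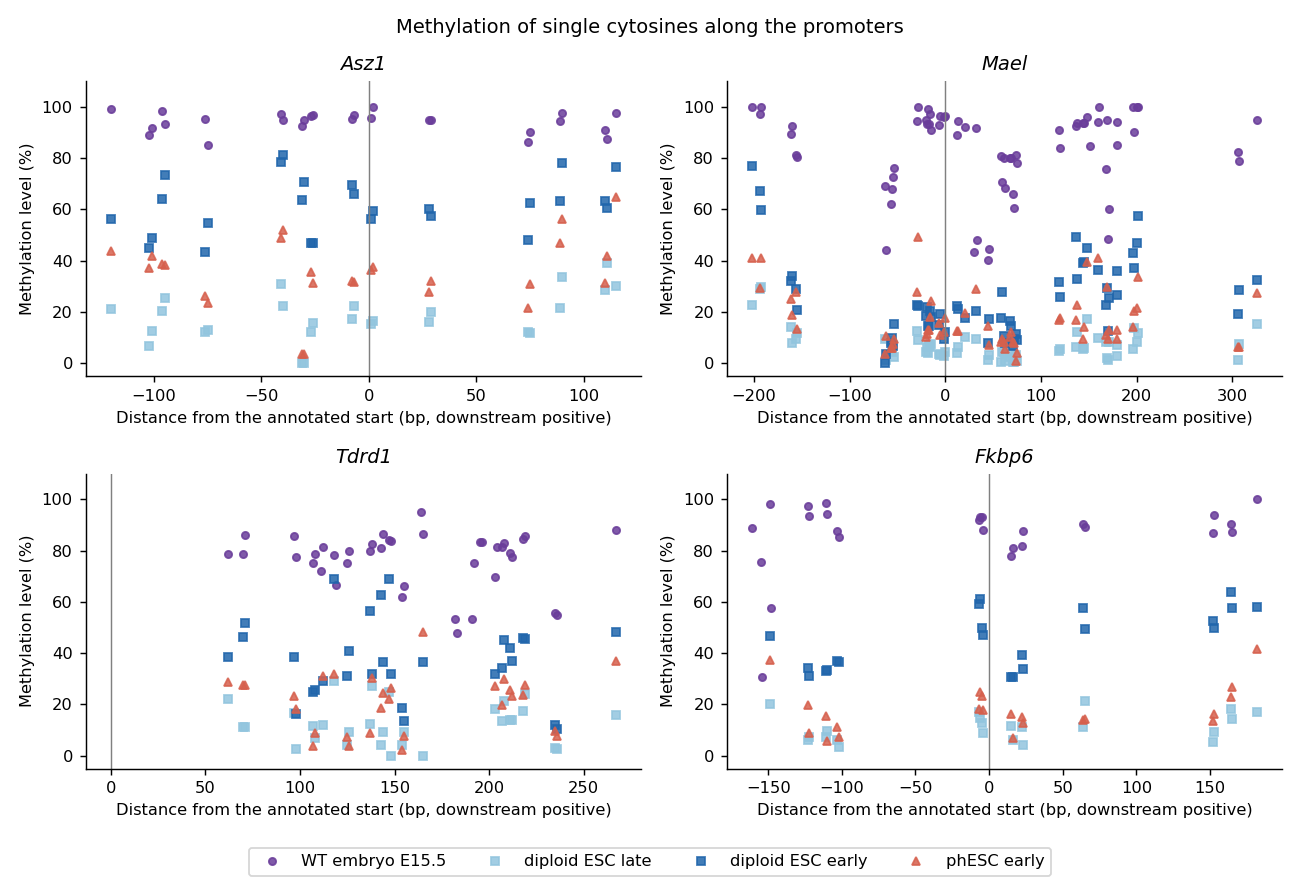
Methylation level (%, vertical axis) of single cytosines against their distance from the annotated start (bp, horizontal axis, downstream positive) in the WT embryo, late and early diploid cells and early phESC, leaving out the 2 Tdrd1 cytosines far upstream. WT embryo points lie highest at most positions, and the early diploid points of Mael fall between -100 and 99 bp, where their means are 14.1% and 14.7%.

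In diploid stem cells, 3 of the 4 promoters were lower at late than at early passage by at least 25 points, where 23.0% of 4605 promoters were lower and 0.152% higher. Asz1 had 18.3% in late and 61.3% in early cells, a difference of -43.0 points. For Fkbp6 the difference was -34.0 points, for Tdrd1 -26.0 and for Mael -17.4, and the median over all promoters was -3.31. Mael began at 24.6% in early cells, so it could not have fallen by 25 points. The Tdrd1 call lies close to the limit, and it was lost at -24.96 points when only cytosines with a value in both libraries entered. With all listed cytosines 0 of the 4 were called, beside 0.690% of 15081 promoters lower, and the differences ran from -16.9 to -8.52 points. On that basis the highest stem cell level was 24.5% at Asz1, 12.4% at Mael, 20.7% at Tdrd1 and 25.1% at Fkbp6. A fall of 25 points was thus impossible at Asz1, Mael and Tdrd1 and nearly so at Fkbp6. With a limit of 35 points over the kept cytosines 1 was called. Over windows of the same length on a fixed grid 74.4% were lower. The 2 diploid libraries belong to the first set.

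In ahESC, 2 of the 4 promoters were lower at late passage, beside 17.1% of 4329 promoters lower and 0.116% higher. Fkbp6 differed by -46.3 points, Asz1 by -41.2, Tdrd1 by -16.9 and Mael by -11.9. The late library is of the second set and the early library of the first, so passage and library set cannot be told apart here. The median over all promoters was 3.78 points, and its sign depends on the cytosines used. With a cytosine kept only if it passed 20% in some library other than these 2, 2411 promoters were measured, 32.1% of them were lower, the median was -10.8 points, and the same 2 genes were called. With all listed cytosines 0 of the 4 were called, beside 0.406% of 14774 promoters lower, and Fkbp6 differed by -19.5 and Asz1 by -15.2 points. Stem cell levels on that basis again left almost no room for a fall of 25 points.

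In phESC, 0 of the 4 promoters passed 25 points between late and early passage, beside 2.17% of 1661 promoters lower and 0.00% higher. Asz1 differed by -9.92 points, Mael by -9.04, Tdrd1 by -6.28 and Fkbp6 by 1.52. Early phESC were already low, with 16.6% in Mael, 17.8% in Fkbp6 and 21.1% in Tdrd1, so a fall of 25 points was possible in Asz1 alone. The sign for Fkbp6 depends on the cytosines used, with -0.19 points over cytosines measured in both libraries and 5.87 points over CpGs outside CCGG. Several Fkbp6 CpGs outside CCGG have a value in late phESC alone, at 21.5% to 49.7%. They were kept only because they reached 20% in that library. Here too passage and library set cannot be told apart.

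Over the 3 cell types the mean difference between late and early passage was -31.4 ± 18.6 points for Asz1, -26.3 ± 24.9 for Fkbp6, -16.4 ± 9.86 for Tdrd1 and -12.8 ± 4.25 for Mael (SD, n = 3). Late levels were lower in 3 of 3 cell types for Asz1, Tdrd1 and Mael and in 2 of 3 for Fkbp6, whose sign in phESC depends on the cytosines used. A two-sided exact permutation test that flips the signs of the 3 pairs gave p = 0.25 for Asz1, Tdrd1 and Mael, the smallest it can give, and p = 0.5 for Fkbp6.

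Among early passage cells, phESC had lower levels than ahESC and diploid cells, most of all at Asz1 and Fkbp6. Against early diploid cells, phESC were lower by at least 25 points at 2 of the 4 promoters, beside 15.8% of 4675 promoters lower and 0.214% higher. The differences were -27.3 points for Fkbp6, -26.2 for Asz1, -17.3 for Tdrd1 and -8.04 for Mael. Against early ahESC the same 2 promoters were lower, with differences of -39.6 points for Fkbp6, -26.1 for Asz1, -9.04 for Tdrd1 and -3.92 for Mael, beside 13.8% of 4550 promoters lower and 0.176% higher. The 2 comparisons share the phESC library. Both Asz1 calls lie within 2 points of the limit, and the value fell short of it when cytosines that reached 10% were admitted, at -24.3 points in each comparison. With all listed cytosines 0 of the 4 were called in either, beside 0.132% of 15130 promoters lower against diploid cells and 0.152% of 15097 against ahESC. No stem cell level exceeded 25.1% on that basis, so a difference of 25 points was hardly possible. Over grid windows 54.1% were lower than in diploid cells and 47.1% lower than in ahESC.

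Early ahESC and early diploid cells had like levels at Asz1, 61.3% in each, and 0 of the 4 promoters passed 25 points, beside 0.129% of 4654 promoters higher and 0.365% lower. Fkbp6 was 12.3 points higher in ahESC, and the differences were -8.24 points for Tdrd1 and -4.12 for Mael. At late passage 0 of the 4 passed 25 points in any pair of cell types. The range over the 4 genes was -0.03 to 1.74 points for ahESC against diploid cells, beside 0.448% of 4463 promoters higher and 0.0448% lower. For phESC against diploid cells it was 0.32 to 8.24 points, beside 0.366% higher and 0.366% lower of 1641, and for phESC against ahESC -1.04 to 8.27 points, beside 0.241% higher and 0.301% lower of 1661. The upper ends of 8.24 and 8.27 points are those of Fkbp6, whose late phESC mean includes cytosines kept only through that library. The comparisons with late diploid cells cross the library sets.

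At each of the 4 promoters the 3 kinds of embryo differed by at most 3.11 points. Against the WT embryo, which both comparisons share, the 4 differences ran from -1.21 to 3.11 points in the BM embryo and from -0.37 to 2.99 points in the BP embryo. None of the 4 passed 25 points, beside 6.64% of 4504 promoters higher and 0.111% lower in BM, and 0.778% higher and 0.778% lower of 3601 in BP. Between the BM and the BP embryo the differences ran from -0.92 to 2.88 points, beside 7.00% of 3615 promoters higher and 0.332% lower.

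In adult brain, BM differed from WT by -7.29 points at Fkbp6, -2.68 at Asz1, -1.01 at Tdrd1 and 2.17 at Mael, and 0 of the 4 passed 25 points, beside 0.102% of 5873 promoters higher and 0.187% lower. The Fkbp6 means rest on 13 cytosines in adult BM and 24 in adult WT brain. Over its CpGs outside CCGG, Fkbp6 had 94.5% in adult BM (5 cytosines) and 93.7% in adult WT brain (12 cytosines). The sign at Fkbp6 thus depends on the cytosines used. Within BM brain, the adult library lay below the E19.5 library at all 4, with differences of -23.7 points at Tdrd1, -17.3 at Fkbp6, -9.71 at Asz1 and -3.67 at Mael. None of these passed 25 points, beside 5.31% of 3689 promoters lower and 0.515% higher. The adult library is of the second set and the E19.5 library of the first, so age and library set cannot be told apart.

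The lower adult levels of Asz1, Fkbp6 and Mael came with low values at CCGG, the site that MspI cuts. In adult BM brain the mean over CpGs inside CCGG was 49.4% in Asz1, 36.3% in Fkbp6 and 63.1% in Mael, against 92.2%, 94.5% and 90.3% over their other CpGs. Adult WT brain had 57.9% in Asz1, 49.9% in Fkbp6 and 67.6% in Mael inside CCGG, against 93.0%, 93.7% and 86.5% outside it. In E19.5 BM brain the CCGG means were 98.1% in Asz1, 92.4% in Fkbp6 and 95.8% in Mael, so no such gap was present there. The 3 embryo libraries had 82.8% to 98.0% inside CCGG at these 3 genes.

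At several CCGG sites the adult brains had a high value on one strand and a low value on the other. At the Asz1 site 115 bp downstream of the start the strands had 91.4% and 2.08% in adult BM brain and 96.8% and 25.8% in adult WT brain, while E19.5 brain had 100% on the first strand and no value on the second. At the Asz1 site at -120 bp the strands had 98.7% and 12.2% in adult BM brain and 95.8% and 24.4% in adult WT brain. Late ahESC had 63.7% and 8.85% on the strands of the first site and 38.8% and 14.1% at the second. The split was thus not confined to the adult brains. Cytosines of CCGG with a value in E19.5 brain had means of 70.6% in Asz1 and 79.4% in Mael in adult BM brain, against 7.16% and 22.2% for those without. In these 2 genes the adult mean was thus lower over the CCGG cytosines that have no value in E19.5 brain.

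Outside CCGG, adult BM brain differed from E19.5 brain by 0.44 points at Asz1, 2.35 at Mael and 3.11 at Fkbp6. Over known CpGs outside CCGG, Tdrd1 kept a lower adult level, with 66.8% over 18 CpGs in adult BM brain and 94.8% over 10 CpGs in E19.5 brain, a difference of -28.0 points. Those 10 lie from 125 to 155 bp, and the 17 Tdrd1 cytosines of unknown sequence are left out. From 200 to 299 bp, where the sequence is unknown, the means were 67.4% in adult BM and 78.8% in E19.5 brain. At 203 bp these libraries had 28.6% and 72.0%. Farther downstream they were closer, for example 80.1% and 84.4% at 207 bp and 89.6% and 88.2% at 218 bp. Over cytosines measured in both libraries the Tdrd1 difference was -17.6 points, and over the 8 cytosines measured in all 12 libraries -8.51 points. Adult WT brain had 67.2% outside CCGG at Tdrd1, close to adult BM brain, and the WT embryo 75.8%.

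**Figure D4:**
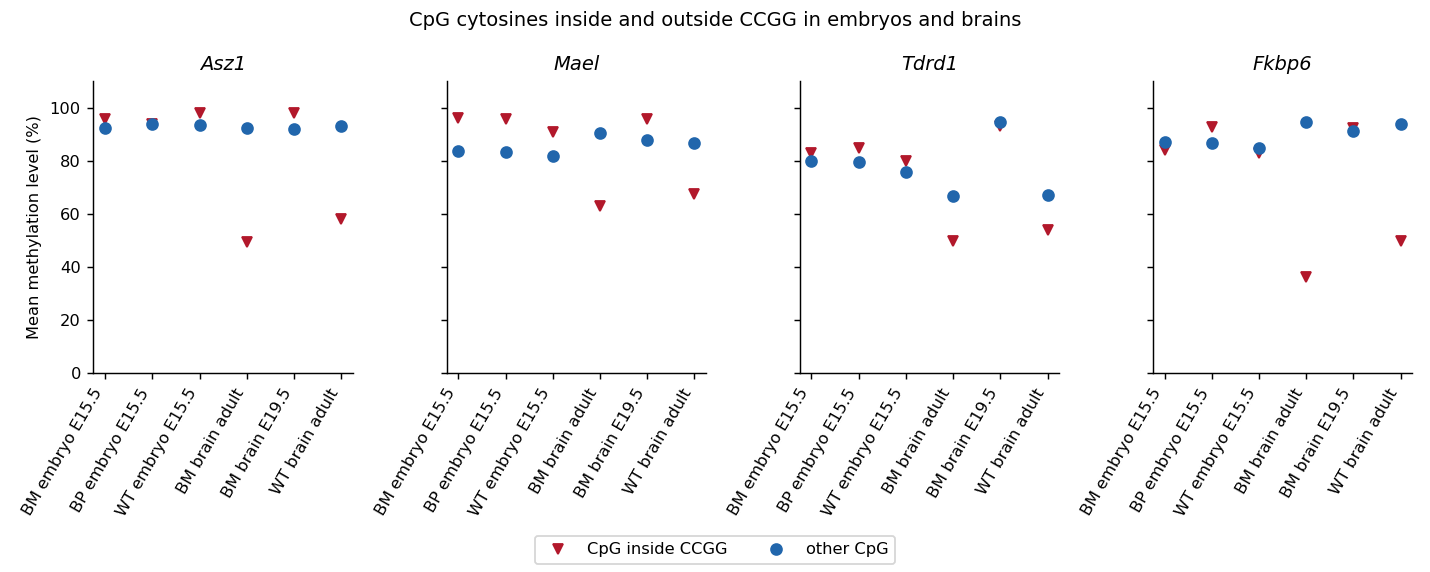
Mean methylation level (%, vertical axis, from 0) of CpG cytosines inside CCGG (triangles) and of other CpGs (circles) in the 6 tissue libraries (horizontal axis) at each promoter. In the 2 adult brains the triangles lie below the circles at all 4 promoters, for example at 36.3% and 94.5% for Fkbp6 in adult BM brain.

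Other genes of the pathway were compared between tissue and stem cells in the same way. Of 25 listed genes 20 were placed on mm9, 12 had at least 6 cytosines in some library and 7 had them in all 12, so only these 7 were tested. In the exact permutation test over 6 tissue and 6 stem cell libraries, 6 of these 7 were higher in tissue, each with an adjusted p of 0.00681 over the 1438 promoters, and 0 were lower, beside the 52.1% and 2.23% of all promoters given above. The median difference of the 7 was 57.9 points, against 20.6 over all promoters. The gene list, too, was chosen with earlier results of these data known.

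Pnldc1, which encodes the nuclease that trims piRNA 3′ ends, averaged 79.7% in tissue and 8.16% in stem cells. Henmt1, the enzyme that methylates those ends, averaged 52.3% in tissue and 9.51% in stem cells. Ddx4, the germ cell RNA helicase also called Vasa, averaged 70.1% in tissue and 10.2% in stem cells. Henmt1 thus reached the lowest tissue level of these genes, and it did so evenly, with 50.8% to 54.0% in the 6 tissue libraries.

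Gpat2, a mitochondrial acyltransferase that binds a PIWI protein, averaged 84.7% in tissue and 16.1% in stem cells. Rnf17, a Tudor-domain protein of male germ cells, averaged 63.5% in tissue and 5.54% in stem cells. Btbd18, a nuclear factor for transcription of piRNA precursors, averaged 88.4% in tissue and 30.7% in stem cells. Tdrd9, an RNA helicase with a Tudor domain, was the exception among the 7, with 79.5% in tissue and 59.2% in stem cells, an exact permutation p of 0.0368 and an adjusted p of 0.0606.

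In the 3 embryo comparisons the same 7 of 10 measured genes were higher by at least 25 points, namely Piwil2, Ddx4, Henmt1, Pnldc1, Gpat2, Rnf17 and Btbd18, and 0 were lower. These 3 shares stand beside 8.35% for the WT, 30.2% for the BM and 11.2% for the BP comparison. Piwil2, which encodes the PIWI protein MILI, had 82.5% in the WT embryo and 23.3% in early diploid cells. Tdrd6 and Tex15 were not called and had low levels in both, with 27.5% in the WT embryo and 33.3% in early diploid cells for Tdrd6, and 9.37% in the WT embryo and 10.04% in early diploid cells for Tex15. Tdrd9, the third, was high in both, with 83.7% in the WT embryo and 80.3% in early diploid cells.

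With passage, Tdrd9 and Btbd18 were lower in late diploid cells among 10 measured genes and 0 were higher, beside the 23.0% of all promoters given above. Tdrd9 had 46.5% in late and 80.3% in early diploid cells, and Btbd18 14.4% in late and 49.7% in early diploid cells. In ahESC Tdrd9 alone was called lower, with 49.3% in late and 80.5% in early cells, 1 of 10 measured genes beside 17.1% of all promoters. In phESC 0 of 7 passed 25 points, beside 2.17% of all promoters lower. The comparisons between cell types, between embryos and between brains called 0 of the 7 to 12 measured genes.

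**Figure D5:**
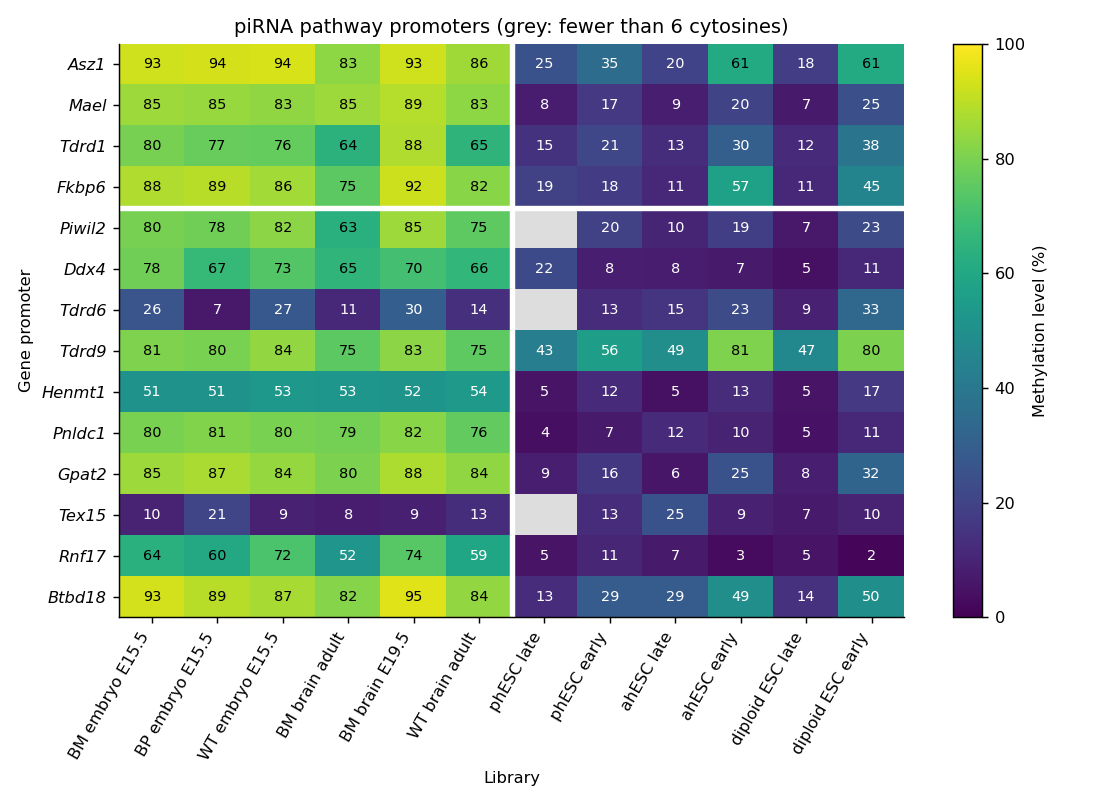
Promoter methylation level (colour and printed number, %) of the 4 genes and of 10 other genes of the pathway (vertical axis) in the 12 libraries (horizontal axis), with grey where fewer than 6 cytosines were measured. Tissue columns on the left are high except for Tdrd6 and Tex15, and Tdrd9 stays at 42.8% or more in the stem cell columns.

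For each of the 4 genes the promoters with the most similar levels were listed. The measure of likeness was the mean absolute difference over the 12 libraries, among the 1438 promoters measured in all of them. It was 7.41 points between Asz1 and Fkbp6, the closest pair of the 4, and 15.3 points between Asz1 and Tdrd1, the farthest. The promoter most like Mael was Sycp2, a gene of the synaptonemal complex, at 1.73 points, with 86.9% in tissue and 13.7% in stem cells, followed by the shared promoter of Zfp264 and Zim3 at 2.26 points.

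Asz1 was most like Taf7l, which encodes a testis paralog of a general transcription factor subunit, at 2.72 points, followed by AC159289.2 at 2.89 and AC132140.1 at 3.22 points. Tdrd1 was most like Cacna1s at 3.13 points, Lat2 at 3.19 and 1700028K03Rik at 4.04 points. Fkbp6 was most like Slc25a31, a carrier of adenine nucleotides in testis mitochondria, at 3.90 points, followed by Nsmce1 at 4.05 and 1700029P11Rik at 4.31 points. None of these neighbours is on the list of pathway genes.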

How the data were processed

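RRBS was done on 12 libraries. Per the submitters' processing notes, reads were trimmed with Trim Galore and processed with Bismark 0.13.1 on build mm9, and other settings are not given in the sources used here. The deposited values are percent methylation at 8119606 cytosines of CG and GC dinucleotides, without depth or sequence context. The 4 members, the gene lists and the tests were chosen with earlier results of these data known.

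Sequence was placed on mm9 by exact match of RefSeq promoters (GRCm38.p6) and GENCODE M21 first exons to the pattern of listed positions, with at least 8 matched and no other position listed. Of 153698 sequences 60051 were placed (39.1%), against 3 at a false shift of 2017 bp (0.00195%). Promoters of 16229 genes were built by the rule of the 4 members, leaving out genes with provisional Gm numbers. Promoters with under 6 cytosines in a library compared were left out. A difference of 25 percentage points was called without a test. The permutation tests are exact and two-sided. Named pathway genes come from a list of 25, and neighbours are the 3 nearest per member.

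Alternatives were 10%, 50% and no filter on level, a filter outside the pair, shared cytosines, medians, the middle of the window, CpGs outside CCGG, other call limits, each library left out of the tissue test, and other minimums or grid windows for all promoters. The scripts were tested on simulated data. They ran in Python 3.11.15 with pandas 2.3.3, NumPy 2.4.6 and Matplotlib 3.10.9.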

Additional observations from a re-analysis of the deposited data

Results flagged for a closer look

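Pairs of differences under the same contrast were singled out where they had opposite signs and at least 1 reached 25 points. None of these differences between contrasts was tested, since there is 1 library per group, and each involves late libraries of the second set. For Fkbp6, late minus early passage was -34.0 points in diploid cells and -46.3 in ahESC, against 1.52 points in phESC. The Fkbp6 mean of late phESC includes 7 cytosines that have a value in no other library. They had 21.5% to 49.7% there and were kept only because they reached 20% in that library. They raise the late phESC mean of Fkbp6, and with it the 1.52 points above and the Fkbp6 values at late passage below. For Asz1, phESC minus diploid cells was -26.2 points at early and 6.92 points at late passage, and for Fkbp6 -27.3 points at early and 8.24 points at late passage. For phESC minus ahESC the values were -26.1 points at early and 5.19 points at late passage for Asz1, and -39.6 points at early and 8.27 points at late passage for Fkbp6.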

How the results depend on the processing

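No difference of the 4 genes that was called changed its sign under any alternative run, and of 592 values for single genes under an alternative 571 kept their side of 25 points, 20 lost a call and 1 gained a call. With no filter on level, the number of called genes was 0 for diploid passage, 0 for ahESC passage, 0 for early phESC against diploid cells and 0 against ahESC, 1 for the WT embryo against diploid cells and 2 for the BP embryo against ahESC. The 0 counts between stem cell libraries were nearly fixed in advance, since no stem cell level then exceeded 25.1% at the 4 genes. With 35 points the number of called genes was 1 for diploid passage, 0 for early phESC against diploid cells, 1 against ahESC and 2 for the BP embryo against ahESC. With cytosines that reached 10% it was 1 for early phESC against either cell type, and with medians 1 against ahESC. For adult against E19.5 BM brain it was 1 (Tdrd1) with CpGs outside CCGG, which leave out its 17 cytosines of unknown sequence, and 1 with 20 points. In the tissue test within the first library set the adjusted p was 0.0755 at differences of 49.3 (Asz1), 68.3 (Mael), 54.7 (Tdrd1) and 56.1 (Fkbp6) points. Against early passage cells alone it was 0.0518 at 37.8 (Asz1), 64.6 (Mael), 45.1 (Tdrd1) and 45.4 (Fkbp6) points. The share of all promoters called depends on how regions are drawn: for diploid passage it was 15.2% with at least 3 cytosines, 30.5% with at least 10, and 74.4% over grid windows of the same length. For the WT embryo against diploid cells the share higher was 5.01%, 14.2% and 14.3% by the same rules. The cause of these changes was not tested. Each group has 1 library, so no replicate of a group could be left out. With each library left out of the tissue test in turn, added after seeing the data, each of the 4 genes was called 12 of 12 times, with differences of 49.8 to 58.4 points for Asz1, 69.6 to 73.0 for Mael, 50.8 to 56.7 for Tdrd1 and 55.4 to 64.6 for Fkbp6, and with no filter on level they were called too, at an adjusted p of 0.0417. Leaving 1 library out could not undo the separation of tissue and stem cell libraries at these 4 genes. The kept cytosines were still chosen over all 12 libraries, so the 12 runs add no independent evidence. The middle of the window was not run for adult against E19.5 brain at Tdrd1, where too few cytosines remain. Unknown depth limits all single values.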

Other observations

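Single CpGs that stood apart from their promoter were looked for after the values were seen. Of 61 CpGs outside CCGG with both strands measured, 7 lay at least 25 points from the median of their promoter on both strands in some library, and 2 did so in 3 or more libraries. The Asz1 CpG at mm9 chr6:18059087-18059088, 30 bases upstream of the start, was low in the brains. Its strands had 44.3% and 42.3% in E19.5 BM brain and 52.8% and 50.9% in adult BM brain, against promoter medians of 96.5% and 97.5%, and 72.9% and 65.9% in adult WT brain. The 3 embryos had 92% to 97.7% there. In early phESC it had 3.57% and 3.53%, against a promoter median of 32.0%, while early ahESC had 73.1% and 58.3% and early diploid cells 70.7% and 63.5%. Late diploid cells had 0% on both strands, against a promoter median of 16.6%, and late ahESC 0.694% and 0.658%, against 16.9%. Late phESC had 25.7% and 12.8%, against 25.5%.

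The Mael CpG at mm9 chr1:168168829-168168830, 46 bases downstream of the start, had 50.3% and 45.8% on its strands in E19.5 BM brain, 49.9% and 42.6% in adult BM brain, 64.4% and 63.3% in adult WT brain and 44.6% and 40.4% in the WT embryo. The BM embryo had 82.9% and 82.4% there and the BP embryo 79.2% and 88.9%, close to their promoter medians of 88.1% and 86.5%.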
